A study of Mus musculus with 8 samples.

Results

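Mycl and 9 genes that lie near it on mouse chromosome 4 were followed in tumour and host cells of small cell lung cancer allografts. The genes were taken by symbol from the deposited gene lists, and all 10 were found among 22056 genes. The data are 8 droplet 3' RNA libraries of single cells from tumours of N2N1G, a mouse small cell lung cancer cell line, labelled as 2 brain, 3 liver and 3 subcutaneous allografts. Brain and subcutaneous tumours were started from 1000000 cells injected in place, while cells for the liver were given by tail vein, so route and site cannot be told apart in comparisons with liver. All tumours were taken after 3 weeks, and healthy single cells were sorted before library preparation. All groups share 1 cell line and no untransplanted culture was analysed here; the labels used here give no genotype, strain, sex or age of the hosts, and nothing says that libraries of 1 site came from separate animals. The p-values below therefore measure the spread between these libraries.

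L-Myc, the protein of Mycl, is a transcription factor of the MYC family that pairs with MAX and binds E-box sequences in promoters. The gene was first found amplified in small cell lung cancer, and neuroendocrine tumours often express it. An amplified stretch of DNA carries neighbouring genes with it, and in human tumours the neighbour RLF can be fused to MYCL. No DNA was measured in these libraries, so copy number was not tested, and the question here was how far the neighbours' transcripts moved together.

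In chromosomal order on GRCm38, the first 3 genes form a close group. Smap2 (ENSMUSG00000032870, chromosome 4, 120968317 to 121017247) encodes a GTPase-activating protein for ARF proteins in membrane traffic. Zmpste24 (ENSMUSG00000043207, chromosome 4, 121059237 to 121098241) encodes the protease that matures prelamin A. Rlf (ENSMUSG00000049878, chromosome 4, 121145373 to 121215084) encodes a zinc finger protein. After a gap of 1621.2 kb, in which 4 genes are listed and none was tested, follow Ppt1 and Cap1. Ppt1 (ENSMUSG00000028657, chromosome 4, 122836242 to 122859175) encodes a lysosomal enzyme that removes palmitate from proteins. Cap1 (ENSMUSG00000028656, chromosome 4, 122859047 to 122886056) encodes a protein of actin turnover. The ends of these genes overlap by 129 bases on opposite strands, and whether the counting used strand is not given in the sources used here, so their counts are uncertain to that extent.

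The remaining 5 genes surround Mycl. Mfsd2a (ENSMUSG00000028655, chromosome 4, 122946850 to 122961188) encodes a lysophospholipid transporter best known from the endothelium of the blood-brain barrier. Mycl itself (ENSMUSG00000028654) spans chromosome 4, 122995652 to 123002485. Trit1 (ENSMUSG00000028653, chromosome 4, 123016597 to 123054949) encodes a tRNA-modifying isopentenyltransferase and starts 20.9 kb from the start of Mycl. Ppie (ENSMUSG00000028651, chromosome 4, 123127115 to 123139951) encodes a cyclophilin of the spliceosome. Pabpc4 (ENSMUSG00000011257, chromosome 4, 123262351 to 123298925) encodes a cytoplasmic poly(A)-binding protein. The whole set spans gene starts from -2027.3 kb to 266.7 kb relative to the start of Mycl.

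RefSeq promoter windows of GRCm38.p6 were available for 8 of the 10 genes, and the 250 bases before each start were searched on both strands for CACGTG, the E-box bound by MYC and MAX, and for TATAAA. These motifs do not overlap each other. Of 32851 mouse promoter windows of that length, 6.02% held CACGTG and 12.4% held TATAAA. Of the 8 members, Rlf alone held CACGTG, with its first base 28 bases before the start. TATAAA was found in Mycl, with its first base 8 bases before the start, and in Pabpc4, 155 bases before it. The start is that of RefSeq, and all 250 bases of the Pabpc4 window lie inside the GENCODE gene whose bounds are given above. The windows of Mycl, of Trit1 and Mfsd2a, its neighbours on either side, and of Rlf are shown because Mycl, Trit1 and Mfsd2a moved against Rlf in the results below. Each is written 5′ to 3′ on the strand of its gene, with matches in capitals. For Mycl only the last 30 bases are given, since all 250 lie inside the GENCODE gene.
Mycl, chr4:122995901-122995930, plus strand: aagccccgggcacgcgacgagaTATAAAgc
Trit1, chr4:123016343-123016592, plus strand: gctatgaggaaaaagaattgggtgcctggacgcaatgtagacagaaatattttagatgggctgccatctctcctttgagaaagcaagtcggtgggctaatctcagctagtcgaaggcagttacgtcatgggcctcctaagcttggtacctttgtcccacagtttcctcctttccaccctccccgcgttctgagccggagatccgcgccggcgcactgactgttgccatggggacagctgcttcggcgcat
Mfsd2a, chr4:122961189-122961438, minus strand: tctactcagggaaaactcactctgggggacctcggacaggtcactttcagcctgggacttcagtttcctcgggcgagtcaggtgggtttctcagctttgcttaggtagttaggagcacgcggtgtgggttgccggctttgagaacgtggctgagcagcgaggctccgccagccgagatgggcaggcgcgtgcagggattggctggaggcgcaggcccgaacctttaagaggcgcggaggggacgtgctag
Rlf, chr4:121215085-121215334, minus strand: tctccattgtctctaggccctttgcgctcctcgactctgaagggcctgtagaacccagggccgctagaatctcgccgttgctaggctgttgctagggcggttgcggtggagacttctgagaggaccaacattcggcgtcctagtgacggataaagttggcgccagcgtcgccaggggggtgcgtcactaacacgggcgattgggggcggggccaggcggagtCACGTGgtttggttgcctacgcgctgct
A match is a string of letters and no measured binding site, and no factor was measured at these windows. The windows of Trit1 and Mfsd2a hold neither string.

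Tumour cells were taken as cells with at least 3 UMIs (unique molecular identifiers, 1 per captured transcript molecule) of the eGFP transcript listed in the tables. They numbered 2389 and 4041 in brain 1 and 2, 4080 to 4646 in liver and 4118 to 6266 in subcutaneous libraries, and held 21758020 to 62158284 UMIs per library. All 10 neuroendocrine tumour markers were above 1 CPM (UMIs of a gene per 1000000 UMIs of the library's summed cells) in each library's tumour cells, with summed levels of 3178 to 4058 CPM. Summed myeloid markers in the tumour cells were 340 CPM in brain 1 and 47.8 CPM in brain 2, with all 8 markers detected in both. They were 1.58 to 19.3 CPM in the other 6 libraries, of which subcutaneous 1 was the highest. Summed glial markers were 125 and 94.4 CPM in brain and 24.6 to 34.2 CPM elsewhere. Between 20 and 56 cell barcodes were shared by each pair of libraries, at most 1.16% of the smaller one. Subcutaneous 1 stood apart from the other subcutaneous libraries for most of the 10 genes, and values without it are given where they differ.

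Mycl was a high transcript of the tumour cells in every library, with 0.3995% to 0.7821% of all UMIs and at least 1 UMI in 99.41% to 99.95% of tumour cells after thinning to 5000 UMIs per cell. Its level was 5120 and 4148 CPM in brain 1 and 2. In liver 1, 2 and 3 it was 7821, 7521 and 7378 CPM. The subcutaneous libraries held 3995, 6306 and 6451 CPM. Brain and liver did not overlap, and subcutaneous 1 lay below both brain libraries. By edgeR's quasi-likelihood test Mycl was lower in brain than in liver by a log2 fold change of -0.81 (SE 0.20, adjusted p = 0.0218). Against subcutaneous tumours the value was -0.27 (SE 0.20, edgeR adjusted p = 0.398). The call against liver was lost without brain 1 (adjusted p = 0.073), brain 2 (0.131), liver 1 (0.0553) or liver 2 (0.0539), all by edgeR. Without subcutaneous 1, the difference from subcutaneous tumours was -0.47 and passed the edgeR threshold (adjusted p = 0.0109).

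Trit1, the next gene beyond Mycl, showed a steeper version of the same order. Its levels were 455 and 461 CPM in brain, 1117, 1170 and 1039 CPM in liver, and 477, 971 and 1031 CPM in subcutaneous 1, 2 and 3. Subcutaneous 1 was near the brain libraries and the other subcutaneous libraries were near liver. Trit1 was lower in brain than in liver by -1.38 (log2, SE 0.29, edgeR adjusted p = 0.0126), a call lost without brain 1 (adjusted p = 0.084) or brain 2 (0.0666). The difference from subcutaneous tumours was -0.85 (SE 0.29, edgeR adjusted p = 0.0791), and -1.13 without subcutaneous 1 (edgeR adjusted p = 4.82e-05).

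Pabpc4, at the far end of the set, followed them. It stood at 842 and 710 CPM in brain, 1736, 1664 and 1464 CPM in liver, and 881, 1316 and 1262 CPM in the subcutaneous libraries. No brain library overlapped a liver or subcutaneous library. Pabpc4 was lower in brain than in liver by -1.17 (log2, SE 0.19, edgeR adjusted p = 0.00394). Against subcutaneous tumours the value was -0.57 (SE 0.18, edgeR adjusted p = 0.0655), and -0.74 without subcutaneous 1 (edgeR adjusted p = 0.00164).

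Mfsd2a, on the other side of Mycl, was the most variable of the genes around it. Brain held 48.5 and 43.8 CPM, liver 102, 148 and 131 CPM, and the subcutaneous libraries 74.8, 238 and 226 CPM. All 6 other libraries were above both brain libraries. Mfsd2a was lower in brain than in subcutaneous tumours by -1.97 (log2, SE 0.48, edgeR adjusted p = 0.0332). That call was lost without any 1 of brain 1, brain 2, liver 1, liver 3, subcutaneous 2 or subcutaneous 3, where the edgeR adjusted p ran from 0.0502 to 0.134. The difference from liver was -1.57 (SE 0.47, edgeR adjusted p = 0.0502), and without subcutaneous 1 the adjusted p was 7.05e-05.

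Ppie, Ppt1 and Cap1 passed no test between sites. Ppie, which lies between Trit1 and Pabpc4, held 734 and 764 CPM in the brain libraries, 686 to 847 CPM in liver libraries and 698 to 892 CPM in subcutaneous ones. Its brain against liver difference was -0.17 (log2, SE 0.14, edgeR adjusted p = 0.42). Ppt1 ranged from 257 to 338 CPM over all 8 libraries, and its highest level was 1.31 times its lowest. Cap1 ranged from 198 to 326 CPM, with a brain against liver difference of -0.24 (SE 0.21, edgeR adjusted p = 0.454). Without subcutaneous 1, Cap1 was lower in brain than in subcutaneous tumours by -0.54 (edgeR adjusted p = 0.0158). The ranges of Ppie and Ppt1 overlapped between all sites.

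Smap2, Zmpste24 and Rlf moved the opposite way. Smap2 stood at 112 and 117 CPM in brain, 23.1, 20.2 and 21.7 CPM in liver, and 46.3, 31.7 and 28.8 CPM in the subcutaneous libraries. Zmpste24 held 89.8 and 95.02 CPM in brain, 15.02, 15.6 and 21.2 CPM in liver, and 39.1, 28.9 and 26.0 CPM in subcutaneous tumours. Rlf held 119 and 108 CPM in brain, 22.6, 18.8 and 21.2 CPM in liver, and 45.2, 28.1 and 25.6 CPM in subcutaneous tumours. For each of the 3 genes both brain libraries were above all others, every subcutaneous library was above every liver library, and subcutaneous 1 was the highest library outside the brain.

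Against liver, the log2 fold changes in brain were 2.30 for Smap2 (SE 0.18, edgeR adjusted p = 0.000299), 2.32 for Zmpste24 (SE 0.19, adjusted p = 0.000423) and 2.34 for Rlf (SE 0.21, adjusted p = 0.00055). Their mean brain levels were 5.28, 5.35 and 5.44 times the liver levels. Against subcutaneous tumours the values were 1.69 (edgeR adjusted p = 0.00116), 1.57 (0.00211) and 1.79 (0.00193) in the same order. All 6 of these calls held without any 1 library, and they held without the tumour cells that carried host markers, where Rlf stood at 2.38 against liver (edgeR adjusted p = 0.000378).

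In counts, 3 of the 10 genes were higher and 3 lower in brain than in liver, where 14.1% of all 13965 genes tested were higher and 7.78% lower (21.9% either way). Against subcutaneous tumours 3 were higher and 1 lower, beside 9.58% and 5.58% of all genes (15.2% either way). Between liver and subcutaneous tumours edgeR called 0 of the 10, beside 2.88% of all genes (0.895% higher and 1.98% lower in liver). An unadjusted p under 0.05 was found for 5 of the 10 (Smap2, Zmpste24, Rlf, Mycl and Pabpc4), beside 2481 of all 13965 genes tested. DESeq2 called Mycl, Pabpc4, Zmpste24 and Smap2 in that comparison. Without subcutaneous 1, edgeR called Mfsd2a (log2 -0.77), Zmpste24 (-0.57), Smap2 (-0.39) and Pabpc4 (0.43), with adjusted p from 0.0143 to 0.0484. Counts over all genes with DESeq2 and in fits without 1 library are given in the closing section. The comparisons with brain share the brain libraries. The median log2 fold change of the 10 genes was -0.21 in brain against liver and -0.20 in brain against subcutaneous tumours, beside 0.02 and 0.01 over all genes tested, so the set had no common direction.

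**Figure D1:**
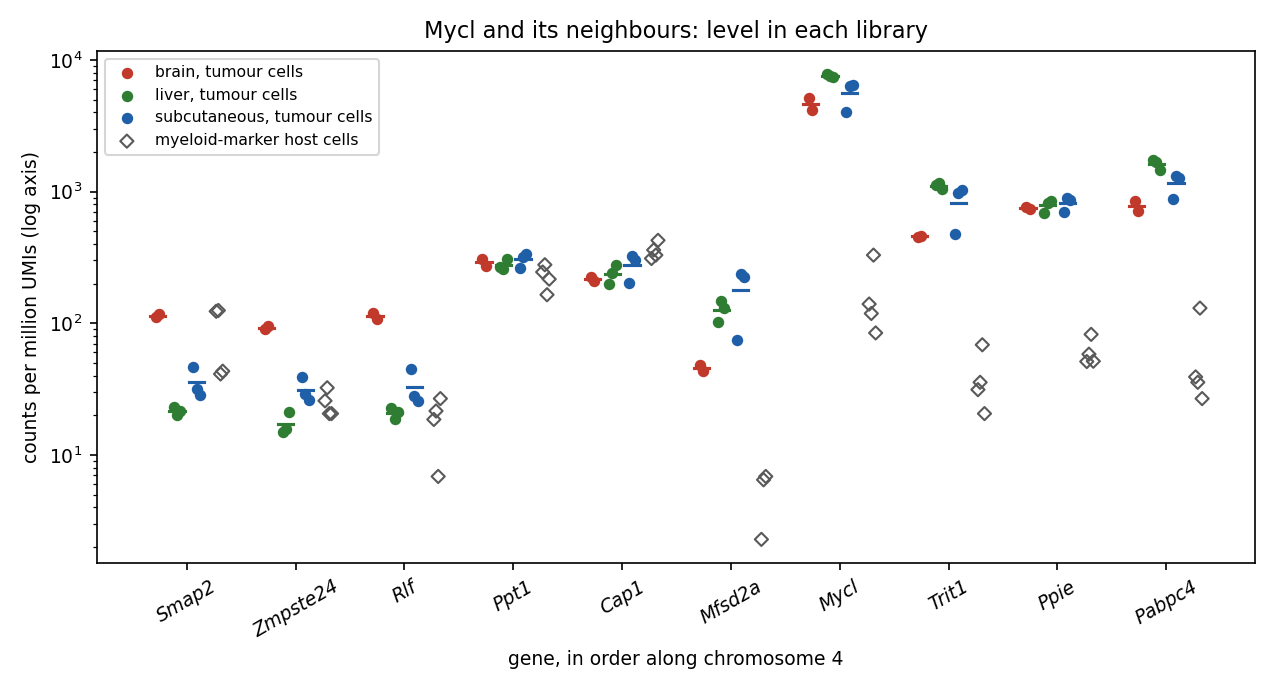
Level of the 10 genes in CPM (log axis), in order along chromosome 4. Filled points are the summed tumour cells of 1 library each with bars at the site mean, and open diamonds are myeloid-marker host cells of 4 libraries, without subcutaneous 1 for Mfsd2a, where the count was 0. Smap2, Zmpste24 and Rlf are highest in brain, while Mfsd2a, Mycl, Trit1 and Pabpc4 are higher in liver than in brain.

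The same turn was visible along the chromosome. The files list 144 genes within 5 Mb of Mycl, of which 101 were tested between sites, and the members divide this window into segments whose bounds were chosen with these results known. Before Smap2, 27 of 33 tested genes were higher in brain than in liver and 1, Ptprf, was lower, with a median log2 fold change of 1.41. From Mfsd2a to Pabpc4, 0 of 8 were higher and 4 were lower, with a median of -0.76. Besides Mycl, Trit1 and Pabpc4 this was Bmp8b, a growth factor gene (-0.71, edgeR adjusted p = 0.0445). Beyond Pabpc4, 24 of 54 were higher and 1 lower, with a median of 0.42. Over all 13965 genes tested, 14.1% were higher and 7.78% lower, with a median of 0.02. From Mfsd2a to Pabpc4 only 8 genes were tested, so the absence of higher genes there is not set apart from that share. The lowering around Mycl thus lay between stretches in which most called genes were higher in brain.

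The nearest tested genes beyond the ends of the set were Zfp69, 2.07 Mb before Mycl, and Bmp8a, 0.32 Mb beyond it. Zfp69, a zinc finger gene, was at 2.45 CPM in brain and 0.871 CPM in liver (log2 1.39, edgeR adjusted p = 0.00689). Bmp8a was at 0.323 and 0.314 CPM and did not pass the test (log2 -0.10, edgeR adjusted p = 0.92). Macf1, the next gene beyond Bmp8a to pass the test, encodes a cytoskeletal linker and was higher in brain by 0.51 (edgeR adjusted p = 0.0156). It starts 0.354 Mb from Mycl.

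**Figure D2:**
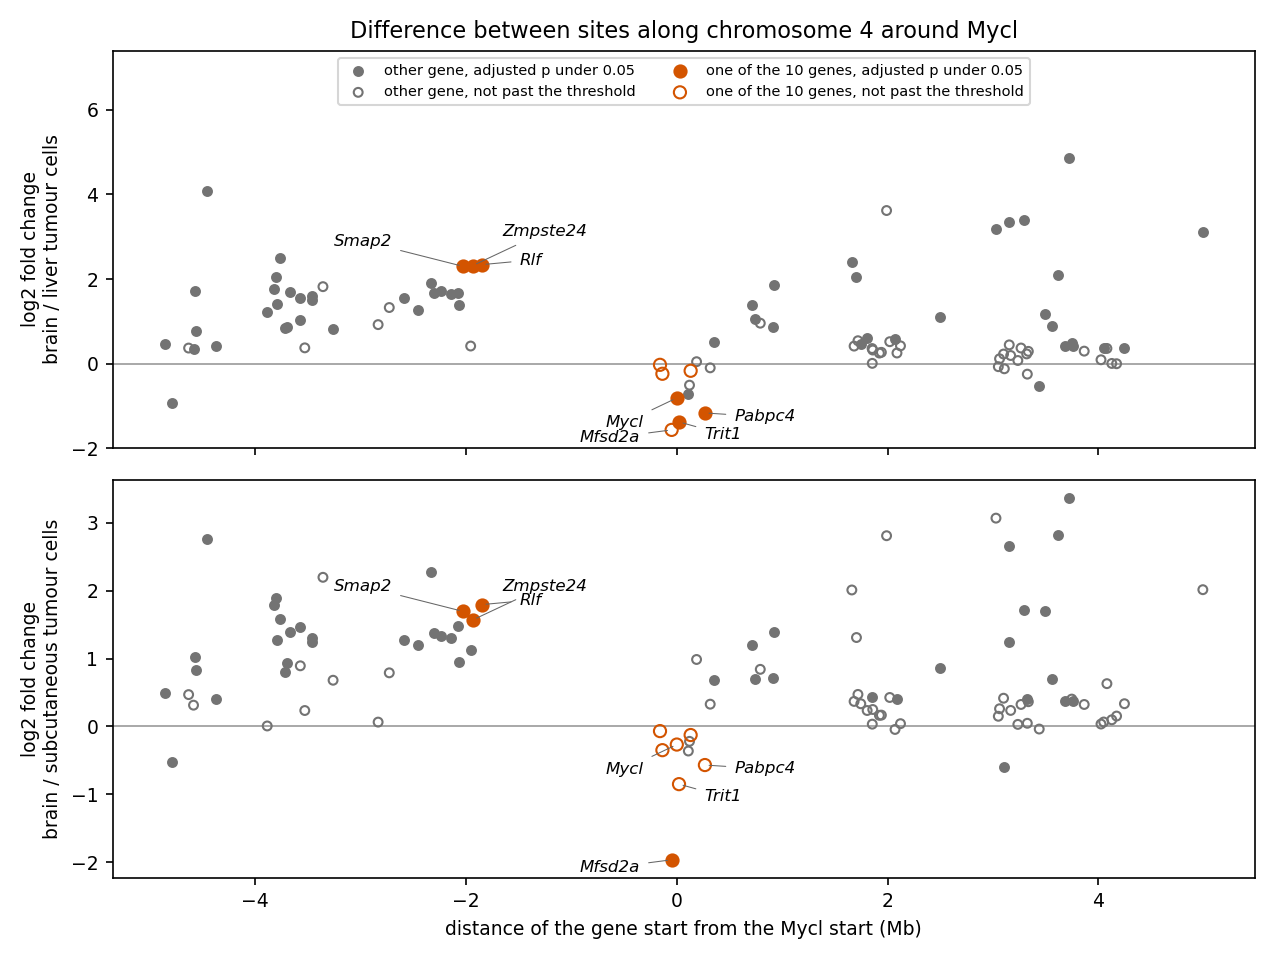
Log2 fold change of summed tumour cells in brain over liver (upper panel) and in brain over subcutaneous tumours (lower panel) by distance of the gene start from the Mycl start in Mb. Each point is 1 tested gene, orange for the 10 genes and grey for others, filled where the edgeR adjusted p is under 0.05. In the upper panel Smap2, Zmpste24 and Rlf lie between 2.30 and 2.34, while Mycl, Trit1 and Pabpc4 lie between -0.81 and -1.38.

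Cell by cell, within each library, the set also divided. Tumour cells were thinned to 5000 UMIs each, which left 30818 cells, 1892 to 5666 per library, and left out 3621 shallower cells. Pearson r was computed across the cells of each library for all 45 pairs and averaged over 8 libraries. Cells of 1 library share its handling and tumour, so these values describe the libraries and carry no p. All 5807 other genes with a mean of at least 0.1 UMI per thinned cell gave the background, in which r with Mycl had a median of -0.003 and 5th and 95th percentiles of -0.087 and 0.078.

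Trit1 had the highest r with Mycl of all 5807 genes. Its mean r was 0.45, with a range of 0.356 in brain 1 to 0.516 in liver 2. Pabpc4 had rank 3 (mean r 0.34, 0.2768 to 0.4499) and Mfsd2a rank 4 (0.32, 0.215 to 0.388). Ppie ranked 54 (0.15) and was positive in all 8 libraries. Ppt1 ranked 345 (0.07) and Cap1 1256 (0.03), both inside the background range. The correlation thus did not fall off evenly with distance, since Pabpc4 lies farther from Mycl than Cap1, Ppt1 and Ppie do.

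The other genes among the 5 most like Mycl lie elsewhere in the genome. Sfrp5, a secreted WNT inhibitor gene on chromosome 19, had rank 2 (mean r 0.37, 0.337 to 0.425). Sftpc, the surfactant protein C gene on chromosome 14, had rank 5 (0.27, 0.197 to 0.382). At the opposite end were Hmgb2 (-0.33), Cdca8 (-0.29) and Smc4 (-0.29), genes of chromatin and mitosis. Cdca8 lies 1.92 Mb beyond Mycl and had the lowest r of the window.

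Smap2, Zmpste24 and Rlf correlated with each other and against Mycl. Mean r was 0.30 for Smap2 and Zmpste24, 0.29 for Smap2 and Rlf and 0.27 for Zmpste24 and Rlf, positive in all 8 libraries for each pair. With Mycl the mean r was -0.13 for Smap2, -0.11 for Zmpste24 and -0.13 for Rlf, negative in all 8 libraries for each. For Rlf and Mycl it ran from -0.245 in brain 1 to -0.0515 in liver 3, and the means were -0.23 over brain, -0.07 over liver and -0.12 over subcutaneous libraries. In rank these genes stood at 5660, 5606 and 5655 of 5807, near the bottom of all genes compared. Between the 3 genes and the 5 from Mfsd2a to Pabpc4, 13 of 15 pairs had a negative mean r, but most were small. Apart from the pairs with Mycl, they ran from -0.079 (Smap2 and Trit1) to 0.013 (Zmpste24 and Ppie). No background over all genes was computed for those pairs, so their signs are not set apart from it. Among the 5, all 10 pairs were positive, from 0.08 to 0.45. The 17 pairs with Ppt1 or Cap1 lay between 0.004 and 0.075.

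Sampling of few UMIs lowers r, so the covariance divided by the product of the means was also taken, which sampling does not shrink. It was 2.48 for Smap2 and Zmpste24 (1.01 to 3.56 over libraries) and 0.222 for Mycl and Trit1 (0.155 to 0.360). Mycl and Mfsd2a gave 0.358 (0.161 to 0.673), above Mycl and Trit1 in every library, so the order by r did not hold on this scale. On this scale the relative covariation of the low Smap2 and Zmpste24 transcripts was larger than that of Mycl and Trit1 in every library. For Rlf and Mycl it was -0.200 (-0.318 to -0.0969).

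**Figure D3:**
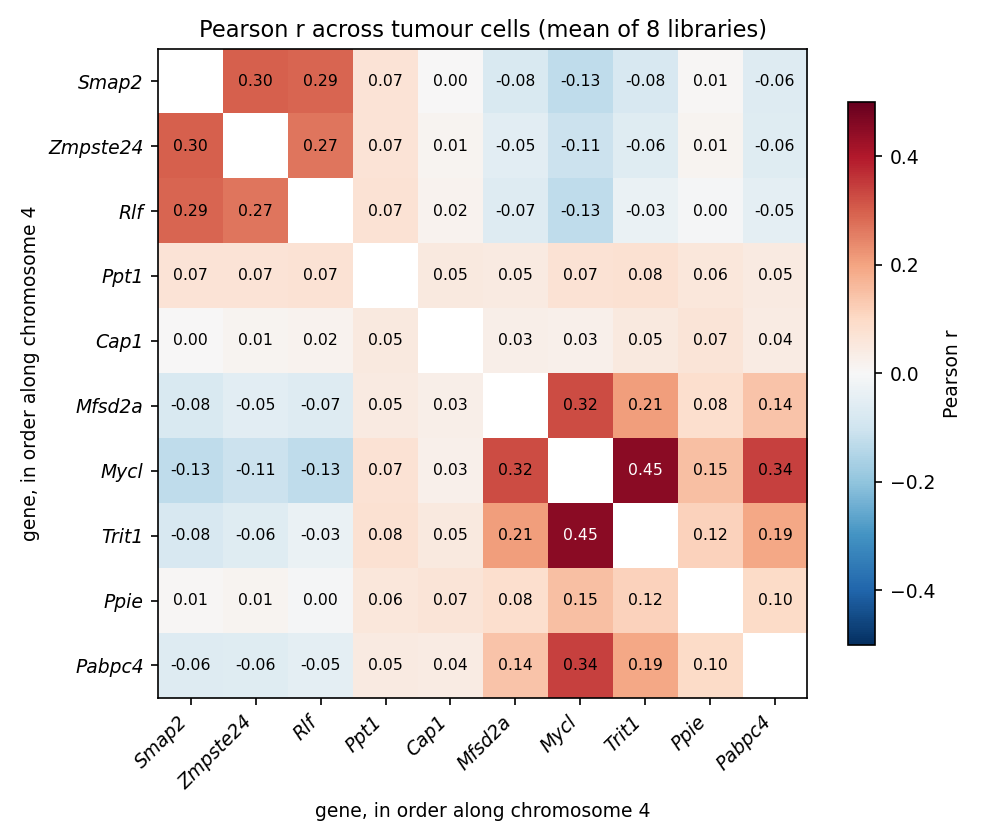
Mean Pearson r over 8 libraries for each pair of the 10 genes across thinned tumour cells, in order along chromosome 4 on both axes (red positive, blue negative). Smap2, Zmpste24 and Rlf form 1 positive block (0.27 to 0.30), Mfsd2a to Pabpc4 another (0.08 to 0.45), and Mycl is negative with the first block.

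The raised Smap2, Zmpste24 and Rlf counts in brain sat in a fraction of the cells. In brain 1, 47.8% of thinned tumour cells had no UMI of these genes and 28.9% had 3 or more. In brain 2 the shares were 45.7% and 29.0%. Cells with 3 or more made up 1.13% to 1.62% in liver, 7.85% in subcutaneous 1, and 2.31% and 2.13% in subcutaneous 2 and 3. The share at 3 or more rises with the level of these genes, so its difference between sites repeats their difference in level. The variance of Rlf over its mean was 2.70 and 2.06 in brain 1 and 2, above the value of 1 that sampling alone gives. It was 2.29 in subcutaneous 1 and 1.25 to 1.83 in the remaining libraries, so a value above 1 was not particular to brain. Where cells differ this ratio rises with the level, so it does not compare sites. Cap1 lay between 1.05 and 1.16 in all libraries.

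Cells with 3 or more of these UMIs held fewer transcripts of Mfsd2a, Mycl, Trit1 and Pabpc4 in each library. Ppie, the other gene around Mycl, was lower in both brain libraries (4.11 and 3.85 UMIs in brain 1) but higher in the other 6 (3.61 and 4.03 UMIs in liver 1). In brain 1, mean Mycl was 30.6 UMIs in cells with none and 17.7 in cells with 3 or more, and in brain 2 it was 25.1 and 14.5. In liver it was 38.0 to 40.8 and 18.03 to 23.4, and in subcutaneous tumours 21.2 to 32.9 and 11.28 to 16. Mfsd2a differed more in relative terms within brain 1, with 0.349 and 0.0568 UMIs. Ppt1 went the other way in all 8 libraries, for example with 1.48 and 1.98 UMIs in brain 1. The liver classes with 3 or more held only 45 to 62 cells.

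Cells grouped this way also differed in the reporter and the tumour markers. Mean eGFP was 11.1 UMIs in brain 1 cells with none of the 3 transcripts and 31.1 in those with 3 or more, and it was higher in the latter in all 8 libraries. The 10 tumour markers summed to 18.1 and 12.6 UMIs in brain 1, and they were also lower in brain 2 and the 3 subcutaneous libraries. In liver they were higher, with 17.1 and 20.1 UMIs in liver 1, 18.3 and 20.7 in liver 2 and 20.4 and 24.8 in liver 3. One of these markers, Calca, had a positive r with the sum of the 3 transcripts in every library, and its part in these sums was not tested. Myeloid markers summed to 1.48 and 0.973 UMIs, glial markers to 0.835 and 0.258 and endothelial markers to 0.128 and 0.0403 in the same cells, all lower in the cells rich in Smap2, Zmpste24 and Rlf. Fibroblast markers were higher there, at 0.0055 and 0.165 UMIs, with 2 of 7 genes detected, and they were higher in each library except subcutaneous 1 (0.136 and 0.107). In brain 2 the myeloid values were 0.228 and 0.188 and the fibroblast values 0.0043 and 0.12. Their part in the split was not tested.

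**Figure D4:**
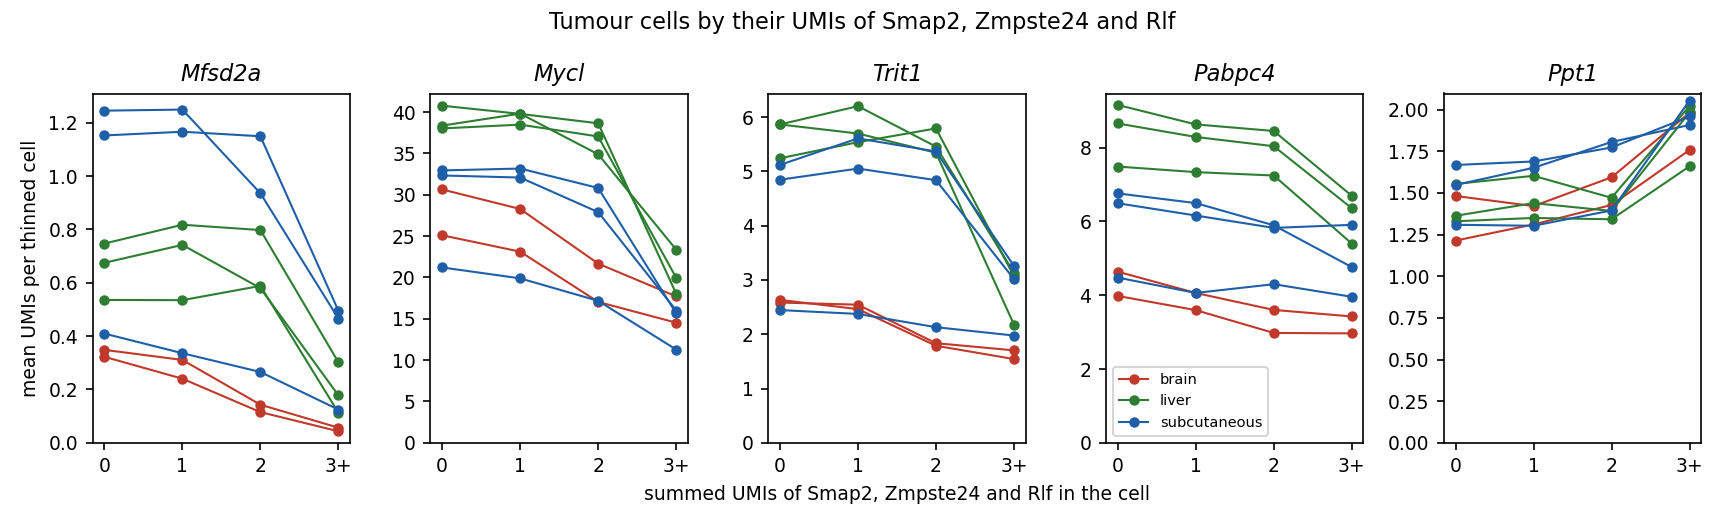
Mean UMIs per thinned tumour cell of 5 genes, by the summed UMIs of Smap2, Zmpste24 and Rlf in the cell (0, 1, 2, or 3 and more). Each line is 1 library, red for brain, green for liver and blue for subcutaneous tumours. Mfsd2a, Mycl, Trit1 and Pabpc4 are lower at 3 and more than at 0 in every library, while Ppt1 is higher.

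Genes that varied with Smap2, Zmpste24 and Rlf lay on both sides of Mycl. Of the 10 genes with the highest mean r with the sum of the 3, 9 lie within 5 Mb of Mycl; these genes were chosen after their values were seen. Ybx1, which encodes an RNA-binding protein and starts 3.72 Mb before Mycl, had a mean r of 0.63. Ctps (0.53) and Nfyc (0.49), genes of CTP synthesis and of a CCAAT-binding factor, lie on the same side. Ndufs5 (0.59), a gene of mitochondrial complex I, lies 0.717 Mb beyond Mycl. Rragc (0.51), a gene of amino acid sensing by mTORC1, lies 0.922 Mb beyond it. Calca, on chromosome 7 and 1 of the 10 tumour markers, was the exception at 0.39 (0.262 to 0.540 over libraries). With Mycl, the r of Ybx1 was -0.19, of Ndufs5 -0.17 and of Rragc -0.16.

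As levels, these genes moved with Smap2, Zmpste24 and Rlf between sites as well. Ndufs5 was at 1213 CPM in brain and 435 CPM in liver (log2 1.38, edgeR adjusted p = 0.00236). Rragc was at 272 and 70.3 CPM (log2 1.85, edgeR adjusted p = 0.000181), and Ybx1 at 6572 and 3393 CPM (log2 0.85, edgeR adjusted p = 0.00445). Across the window, r with the sum was positive for 18 of 19 genes before Smap2 and 29 of 31 beyond Pabpc4, but for only 1 of 6 from Mfsd2a to Pabpc4, which was Ppie. For chromosome 4 genes outside the window the median r was 0.0004, with 5th and 95th percentiles of -0.093 and 0.122. The median r was 0.267 before Smap2, -0.078 from Mfsd2a to Pabpc4 and 0.090 beyond Pabpc4, so only the first lay outside that range. Of the genes from Mfsd2a to Pabpc4, only Mycl (-0.164) lay outside it. The sign thus turned from Mfsd2a to Pabpc4, but apart from Mycl the values there are not set apart from that background.

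**Figure D5:**
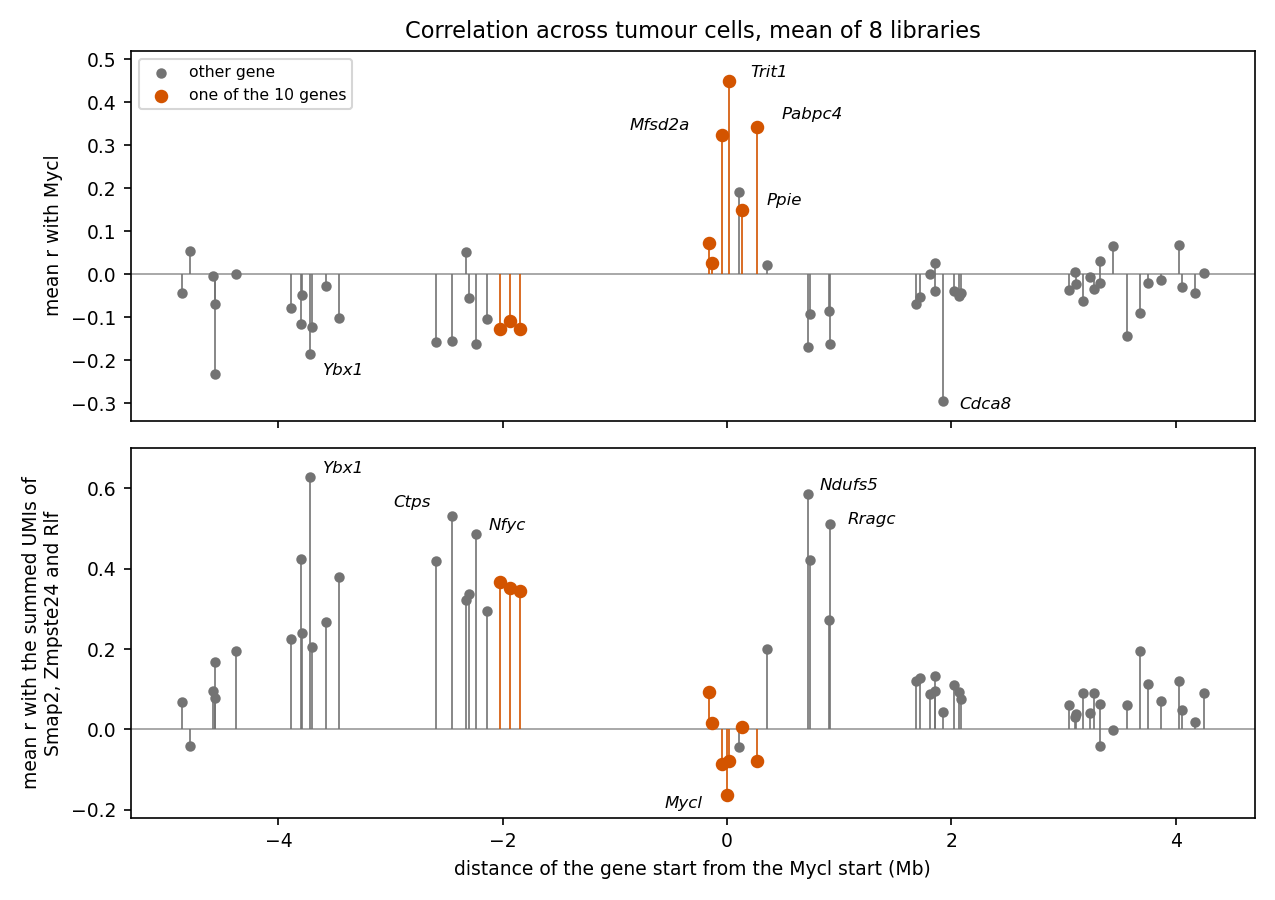
Mean Pearson r over 8 libraries across thinned tumour cells, by distance of the gene start from the Mycl start in Mb, with Mycl (upper panel) and with the summed UMIs of Smap2, Zmpste24 and Rlf (lower panel; each of the 3 is set against the other two). Genes from Mfsd2a to Pabpc4 reach 0.45 with Mycl, while Ybx1 (0.63) and Ndufs5 (0.59) on either side are highest with the sum.

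Host cells served as a background without the tumour genome. Myeloid-marker host cells had no eGFP UMI and at least 5 UMIs over 8 myeloid genes, and libraries with at least 20 of them were used. These were brain 1 (657 cells), brain 2 (218), liver 2 (44) and subcutaneous 1 (94), with median depths of 2268.5 to 4802.5 UMIs per cell against 8073 to 10603 in tumour cells of the same libraries. Mycl was at 140, 119, 329 and 84.5 CPM in them, which is 2.73%, 2.86%, 4.38% and 2.11% of the tumour level. The 10 tumour markers stood at a median of 4.02%, 4.10%, 7.70% and 5.51% of their tumour level in the same cells. The Mycl share was below that median in each library and was read as background. For Trit1 the shares were 6.88%, 7.73%, 5.87% and 4.32%, above the median in brain and below it in the other libraries.

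Tumour cells exceeded host cells for 7 of the 10 genes and were lower for 2, beside 34.2% and 25.2% of the 12480 genes tested (59.4% either way). The log2 ratio was 4.67 for Mycl (SE 0.16, edgeR adjusted p = 5.08e-09), 3.92 for Pabpc4, 3.62 for Mfsd2a, 3.56 for Trit1 and 3.23 for Ppie, each past the edgeR threshold. The median of the 10 was 2.36, beside 0.28 over all genes tested. Free tumour RNA in host droplets lowers such ratios. Mfsd2a had 7, 6, 1 and 0 UMIs in the 4 host sums, and the 0 of subcutaneous 1 allows up to 6.18 CPM by 3 counts.

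For Smap2, Zmpste24, Rlf, Ppt1 and Cap1 the ratios were lower than for the members from Mfsd2a to Pabpc4, or were reversed. Other genes of the window were also higher in tumour cells. Before Smap2, edgeR called 20 of 29 tested genes higher and 3 lower (median log2 ratio 1.98). Beyond Pabpc4 it called 25 of 47 higher and 6 lower (median 0.86). Rlf was higher in tumour cells by 1.49 (log2, SE 0.34, edgeR adjusted p = 0.00239) and Zmpste24 by 0.82 (SE 0.29, adjusted p = 0.0273). Smap2 was lower in tumour cells by -0.68 (SE 0.21, edgeR adjusted p = 0.0152), with 123, 125, 41.2 and 43.3 CPM in the host cells. The calls of Zmpste24 and Smap2 were lost without brain 1 (edgeR adjusted p = 0.167 and 0.0573) or brain 2 (0.102 and 0.153), and with DESeq2 on all libraries (log2 0.93, adjusted p = 0.0569, and log2 -0.45, adjusted p = 0.0514). Without the library as a block, edgeR lost those calls and that of Rlf (adjusted p = 0.0902). Cap1 was lower by -1.14 (SE 0.20, edgeR adjusted p = 0.000414) and Ppt1 did not pass the test (-0.15, SE 0.20, adjusted p = 0.555). Liver 1, liver 3, subcutaneous 2 and subcutaneous 3 had too few host cells to enter.

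Whether the tumour over host ratio differed in brain was tested as an interaction. EdgeR called 0 of the 10 genes, beside 4.94% of 12480 genes (3.14% higher and 1.79% lower in brain). Rlf was the nearest (log2 difference 1.59, SE 0.56, edgeR unadjusted p = 0.00466, adjusted p = 0.0814). It was the only one of the 10 at an unadjusted p under 0.05, beside 1690 of the 12480 genes. In 47 endothelial-marker cells of brain 1, Mfsd2a was at 343 CPM (95% exact Poisson interval 253 to 454, counting error only), above the 48.5 CPM of the tumour cells there. Mycl in the same cells was at 214 CPM (144 to 306), 4.18% of its tumour level.

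Among Smap2, Zmpste24 and Rlf, and for Mycl with Trit1 or Pabpc4, r was lower in host cells than in tumour cells of the same library. In 427 myeloid-marker cells of brain 1 thinned to 3000 UMIs, r was -0.036 for Zmpste24 and Rlf, 0.023 for Smap2 and Rlf and 0.105 for Smap2 and Zmpste24. Tumour cells of that library at the same depth gave 0.307, 0.284 and 0.278. For Mycl and Trit1 the host and tumour values were 0.035 and 0.313 in brain 1, and 0.245 and 0.434 in brain 2, where 138 host cells were left. For Mycl and Pabpc4, the pair with the highest host r in brain 1, they were 0.184 and 0.255 there and 0.0554 and 0.365 in brain 2. The highest host r in brain 2 was 0.681, for Mfsd2a and Pabpc4, above the tumour values given here. Mfsd2a had 6 UMIs in all 218 host cells of that library before thinning. Over all 45 pairs the median host r was -0.0019 in brain 1 and 0.021 in brain 2. Host counts were sparse, so these values describe those cells only.

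Of 12 genes of the MYC network, Mxd1 and Mycn were higher and Mlxip lower in brain than in liver, beside 14.1% higher and 7.78% lower over all genes tested, a share near the background. The median log2 fold change of the list was -0.13, beside 0.02 over all genes. Mean Mycn was 31.4 CPM in brain, 12.2 in liver and 27.1 in the subcutaneous libraries, and Myc stood at 2.31, 2.59 and 6.35 CPM. Mycn was higher in brain than in liver by 1.26 (log2, edgeR adjusted p = 0.00278), and Myc was lower in brain than in subcutaneous tumours by -1.48 (edgeR adjusted p = 0.00993). Max, which encodes the partner of the MYC proteins, did not pass the test in any comparison (edgeR adjusted p = 0.16 in brain against liver).

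Of 20 MYC target genes, which serve ribosome assembly, nucleotide synthesis and the cell cycle, 1 was higher and 1 lower in brain than in liver, beside the same 14.1% and 7.78% of all genes. Rcc1, a chromatin-bound exchange factor, was higher by 0.40 (log2, edgeR adjusted p = 0.0485). Ldha, lactate dehydrogenase A, was lower by -0.80 (edgeR adjusted p = 0.0121), with mean levels of 798, 1293 and 1877 CPM in brain, liver and subcutaneous libraries. The median of the list was -0.18, beside 0.02 over all genes. Against subcutaneous tumours Tfrc, the transferrin receptor, was also lower in brain (-0.75, edgeR adjusted p = 0.0103). Across cells Gnl3 had the highest r with Mycl among the targets, 0.17.

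At the edges of tumour specificity, 6 other genes of the window were named by their tumour over host ratio. Grik3, a glutamate receptor gene, Foxo6 and Col9a2 had no UMI in the myeloid-marker host cells and 8.41, 6.52 and 2.03 CPM in brain tumour cells. Csf3r (log2 ratio -6.66), Zc3h12a (-5.14) and Eva1b (-4.44) were lower in tumour cells by edgeR (adjusted p = 2.62e-07, 1.45e-07 and 0.000439). Csf3r, the receptor of a granulocyte growth factor, had 1.64 CPM in brain and 0.161 CPM in liver tumour cells, beside 56.8 CPM in host cells. Csf3r and Eva1b moved in brain with the summed myeloid markers given above, and the part of those cells in their brain values was not tested.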

How the data were processed

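Single cells were profiled with 10x 3' chemistry, and reads were aligned to mm10 with Cell Ranger and STAR, per the submitters' processing notes; versions, and whether counting used strand, are not given in the sources used here. The deposited files hold raw UMI counts per gene and cell in Cell Ranger format 3.0.0, per the file headers. The 10 genes and the lists were chosen with earlier results of these data known.

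Cells needed 500 or more detected genes and no more than 10% mitochondrial UMIs, which 36797 of 38460 met, and doublets were not removed. Tumour cells had at least 3 eGFP UMIs. Host cells had none and at least 5 UMIs over a marker panel. Counts were summed per library, and 13965 genes passed edgeR's expression filter. Sites were compared in 1 fit of all 8 tumour sums with TMM scaling and edgeR's quasi-likelihood test (edgeR 4.0.16, limma 3.58.1, R 4.3.3), with Benjamini-Hochberg adjustment over all genes and a threshold of 0.05. Tumour and host sums were compared with the library as a block, since both come from the same library. Tested on simulated data, the site fit recovered 74.5% of 200 genes changed by 2-fold in brain against liver among 13737 genes, with 1.32% false calls. Levels (CPM) are UMIs per 1000000 summed UMIs, computed from the deposited counts. They are not corrected for transcript length or capture and were not compared between genes. In sums over cells, fewer cells and less RNA per cell cannot be told apart.

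Correlations used cells thinned at random to 5000 UMIs (numpy 2.4.6, Python 3.11.15). Gene positions came from GENCODE M21 on GRCm38, which placed 21952 of 22056 genes, and promoter sequences from RefSeq. Named besides the 10 genes were the nearest tested gene beyond each end, the 3 highest and 3 lowest tumour over host ratios within 5 Mb, the 5 genes most correlated with Mycl, and members of 2 MYC lists past the threshold (the rule also named the highest and lowest level in each list, left out because levels of different genes are not comparable here); other genes were named after their values were seen. Alternatives were DESeq2 1.42.0, other eGFP and marker limits, no filter on low genes, another thinning depth, a replicate block, a fit of the compared sites only and leaving out each library. Leaving out tumour cells with host markers in the tumour against host comparison was chosen after seeing the data.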

Additional observations from a re-analysis of the deposited data

How the results depend on the processing

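The counts of genes past the threshold depended on single libraries. Over fits leaving out 1 library each, edgeR called 1131 to 4616 genes in brain against liver (3061 with all libraries), 399 to 4754 in brain against subcutaneous tumours (2117) and 35 to 1015 in liver against subcutaneous tumours (402). The tumour against host count ran from 6258 to 7718 (7418). The brain counts were lowest without brain 1 and highest without subcutaneous 1. Liver against subcutaneous tumours gave 1052 calls with DESeq2 and 233 with at least 1 eGFP UMI, and brain against subcutaneous tumours gave 709 in a fit of those sites only. Correlations of deviations from site means ran from -0.25 to 0.284 over 7 same-numbered pairs and from -0.284 to 0.286 over the other pairs. With 2 brain libraries their deviations mirror each other (-0.131 and 0.131 with liver 1). These values therefore cannot decide whether replicate numbers pair the libraries. With the replicate number as a block, 1407 genes were called in brain against subcutaneous tumours and 208 in liver against subcutaneous tumours, and the Mycl call in brain against liver was lost (log2 -0.77, edgeR adjusted p = 0.0671).

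Smap2, Zmpste24 and Rlf kept their calls in both brain comparisons under each alternative run. The signs of the small Ppt1, Cap1 and Ppie differences were not stable. For Ppt1, the log2 value of brain against liver was 0.003598 with cells thinned to 3000 UMIs and 0.04371 with the block, and -0.111 to 0.02495 over fits leaving out 1 library. Brain against subcutaneous tumours was 0.005153 with the block and -0.1709 to 0.003083 leaving out 1 library. Liver against subcutaneous tumours, leaving out 1 library, ran from -0.144 to 0.03186 for Ppt1, from -0.3015 to 0.03992 for Cap1 and from -0.07078 to 0.1429 for Ppie. The tumour against host value of Ppt1 was 0.1636 without brain 2. At 3000 UMIs per cell the mean r of Mycl was lower, at 0.393 with Trit1 and 0.269 with Pabpc4. Shallower cells also entered at that depth, for example 2273 tumour cells in brain 1 against 1892 at 5000 UMIs. Leaving out 1 library at 5000 UMIs gave 0.44 to 0.463 with Trit1 and 0.326 to 0.351 with Pabpc4. The causes of these changes were not tested. Depth limits Rlf, Zmpste24 and Smap2 in liver, where few cells held a UMI of each.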
